A study of Mus musculus with 24 samples.

Results

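Tuft cells are rare chemosensory cells of the intestinal epithelium, and 10 genes that mark them are described here across mouse jejunal crypts that had lost Apc, Nle1 or both. The genes were taken by symbol from the 37620 genes of the deposited table of estimated counts: Pou2f3, Gfi1b, Dclk1, Avil, Trpm5, Alox5, Alox5ap, Ptgs1, Hpgds and Il25. All 10 were in the table. After a filter on low counts, 9 of them were among the 16552 genes tested, and Il25 was too low to test.

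Polyadenylated RNA of whole crypts came from 24 mice, 3 per genotype and day, with collection at 24 h (called day 1) or at 48 h (called day 2) from induction. Control, NlecKO (conditional knockout of Nle1, or Notchless), ApccKO (conditional knockout of Apc) and ApccKO;NlecKO mice (double knockout) were compared. Per the labels' protocol, which covers every sample, all mice received intraperitoneal tamoxifen at 56 mg/kg on 3 consecutive days at an age of 5 to 10 weeks, and crypts were taken from the jejunum. Neither the Cre driver, the recombined alleles and the strain nor the alleles of the Control mice are stated by the labels.

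Apc restrains Wnt signalling, which maintains crypt stem cells, and Nle1 is needed for assembly of the large ribosomal subunit. Tuft cells use a taste-type pathway that ends in opening of the cation channel Trpm5. They release the cytokine Il25, which acts on innate lymphoid cells in type 2 immunity, and make leukotrienes and prostaglandins from arachidonic acid. The POU-domain factor Pou2f3, which binds octamer sequences, is required for the lineage.

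Total estimated counts per library were 17.86 to 26.47 M (median 19.82 M). Nle1 averaged 22.7 to 24.8 CPM (counts scaled to library size) in Control, 34.9 to 37.2 in ApccKO, 5.53 to 6.69 in NlecKO and 9.59 to 9.80 in double knockout groups, so the Nle1 label held in each group. Apc averaged 130 to 147 CPM in all groups, and its gene-level count does not show a partial deletion. Replicates 2 and 3 of ApccKO and replicate 3 of the double knockout on day 1 stood apart from the rest. They had 0.320 to 0.578 CPM of the predicted gene Gm8730, against 52.7 to 100 in the other 9 libraries of day 1, and 295 to 455 CPM of the lactase gene Lct against 64.1 to 93.4 in the other Apc-lost libraries of day 1. The library codes of the Apc-lost samples form a single run between those of the Apc-intact samples, so Apc loss and that run cannot be told apart. Paneth cell markers, which define the crypt base, were abundant in every library (6722 to 15819 summed CPM), and so were enterocyte markers of the villus in Control (5682 to 23118).

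The octamer core was searched upstream of the start sites because Pou2f3 is itself one of the genes. RefSeq promoter windows (GRCm38.p6) matched 7 of the 10 genes with 8 windows. ATGCAAA, searched on both strands in the 250 bases before the start, was present in 2 of these 8 windows and in 4.12% of 32851 windows of that length. ATGCAAAT, which contains it, was present in 1 of 8 and in 1.60%. The matches of Hpgds and Avil are shown, followed by the windows of Alox5 and Ptgs1, which fell among the most after Apc loss and have no match there. The windows of Dclk1, Gfi1b and Trpm5 also had no match, and Alox5ap, Pou2f3 and Il25 had no window. Whether a match goes with the size of a change was not tested. Capitals mark the core or its reverse complement. The Hpgds stretch is chr6:65144886-65144915 on the minus strand, and its core begins 174 bases before the RefSeq start. The stretch lies partly inside the longer GENCODE gene model. The Avil window is chr10:127000459-127000708 on the plus strand, with matches beginning 15 bases and, on the opposite strand, 115 bases before the start. The Alox5 window is chr6:116461179-116461428 on the minus strand, and the Ptgs1 window is chr2:36230176-36230425 on the plus strand.
Hpgds: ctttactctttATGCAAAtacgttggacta
Avil: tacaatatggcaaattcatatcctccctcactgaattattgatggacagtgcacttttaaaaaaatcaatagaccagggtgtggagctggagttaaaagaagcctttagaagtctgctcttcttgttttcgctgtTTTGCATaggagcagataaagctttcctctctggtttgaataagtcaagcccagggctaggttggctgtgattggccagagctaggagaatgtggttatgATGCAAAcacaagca
Alox5: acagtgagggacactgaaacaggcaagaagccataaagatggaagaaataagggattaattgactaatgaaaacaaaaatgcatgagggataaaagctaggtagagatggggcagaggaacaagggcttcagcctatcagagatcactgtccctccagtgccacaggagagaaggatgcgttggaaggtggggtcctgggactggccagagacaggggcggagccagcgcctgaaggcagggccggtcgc
Ptgs1: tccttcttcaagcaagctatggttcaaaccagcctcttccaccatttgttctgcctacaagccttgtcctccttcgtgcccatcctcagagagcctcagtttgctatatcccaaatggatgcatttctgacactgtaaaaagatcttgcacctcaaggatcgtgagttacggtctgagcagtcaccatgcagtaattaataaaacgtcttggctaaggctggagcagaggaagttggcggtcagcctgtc
A match is a description of letters, and no occupancy was measured.

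Levels below are CPM after TMM scaling, an estimate of relative library composition, and values are listed in the order of replicates 1, 2 and 3. Fold changes are on the log2 scale with their standard error (SE), from the edgeR quasi-likelihood test fitted to all 24 libraries, with Benjamini-Hochberg adjustment over all 16552 genes. A gene is called changed at an adjusted p under 0.05. In whole-crypt RNA, fewer tuft cells and less RNA per tuft cell cannot be told apart. The mice were separate animals per the series' design text.

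The levels of the 10 genes differed widely in Control crypts. Per transcript length, in the authors' TPM (transcript abundance scaled by length), the day 1 means were 11.3 for Alox5ap, 9.63 for Avil, 9.41 for Trpm5, 5.96 for Dclk1, 3.49 for Hpgds, 3.37 for Alox5, 3.11 for Ptgs1, 1.97 for Pou2f3, 1.14 for Gfi1b and 0.218 for Il25. The transcription factors and the cytokine were thus at the low end, and the leukotriene cofactor and the channel at the high end. The SD was 3.99 for Alox5ap, 1.89 for Avil and 1.15 for Trpm5 (n = 3), so the order of these genes is uncertain. So is that of Hpgds, Alox5 and Ptgs1, with SDs of 1.37, 1.05 and 0.348.

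**Figure D1:**
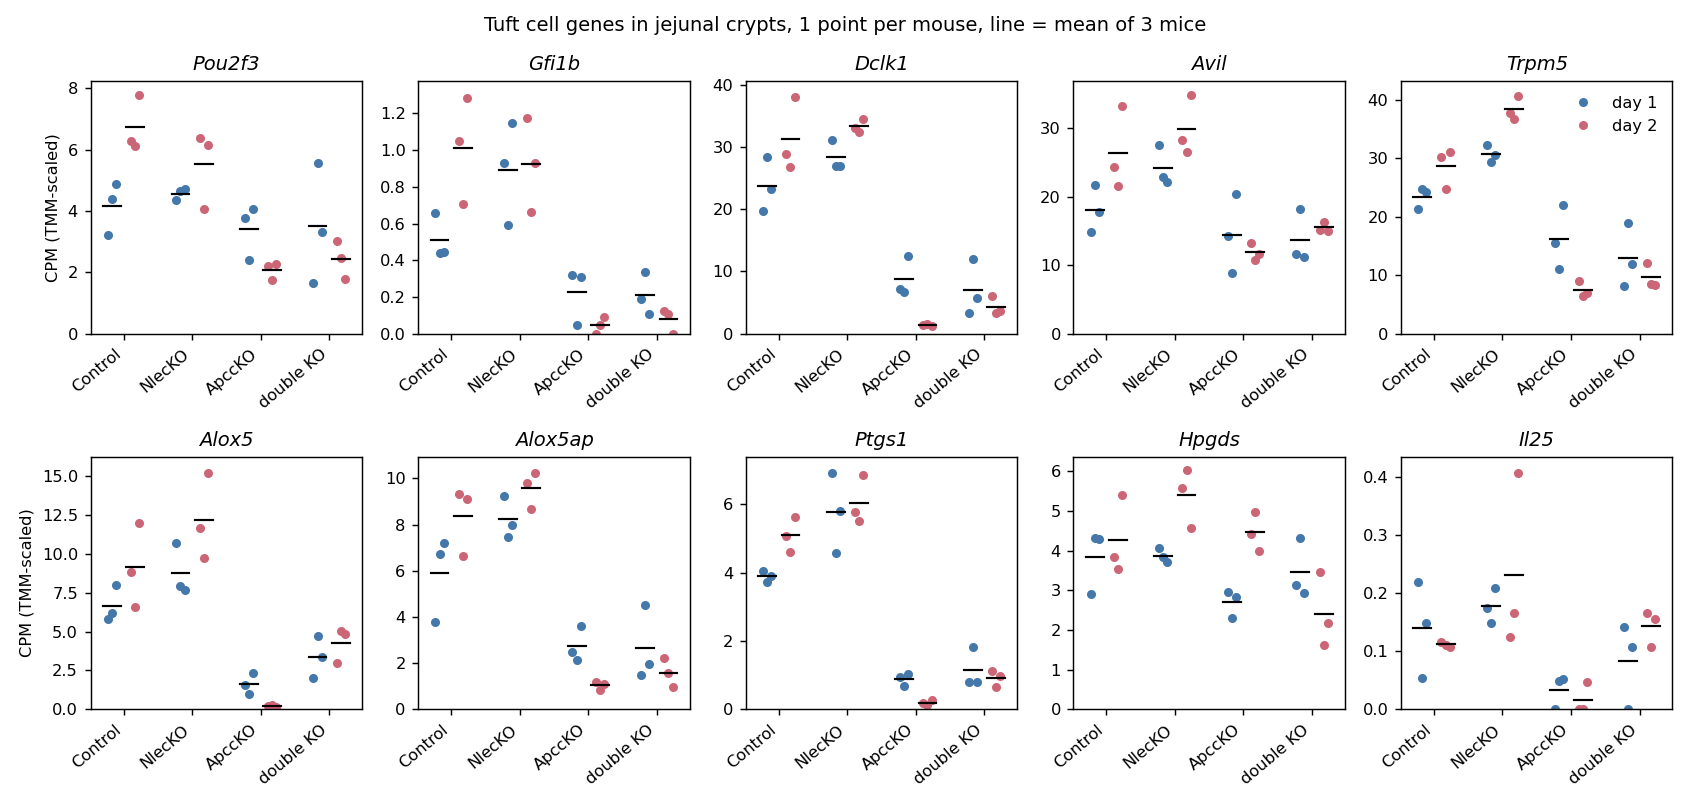
CPM of the 10 genes (vertical axes, each from 0) in the 4 genotypes, with day 1 in blue and day 2 in red, 1 point per mouse and a line at the mean of 3 mice. On day 2 the 8 tested genes other than Hpgds lie lower in both Apc-lost genotypes than in both Apc-intact genotypes, without overlap, while Hpgds stays near its Control level in ApccKO and Alox5 is higher in the double knockout than in ApccKO.

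Most of the tuft cell genes were lower after Apc loss, and on day 2 the difference was larger than on day 1 for Dclk1, Alox5 and Ptgs1. In ApccKO against Control, 4 of the 9 tested genes fell on day 1 (Dclk1, Alox5, Alox5ap and Ptgs1) and 8 fell on day 2, all but Hpgds. Of all genes tested, 25.0% were called lower on day 1 and 29.4% on day 2. The median change of the 9 genes was -1.11 on day 1 and -2.98 on day 2, beside -0.01 and 0.02 over all genes tested. In the double knockout against NlecKO, the same Apc comparison without Nle1, 7 genes fell on day 1 and 9 on day 2, against 24.4% and 22.2% of all genes, with medians of -1.39 and -1.99. Pou2f3 and Hpgds were the genes not called there on day 1, and without replicate 2 of the double knockout Pou2f3 was called as well (-0.87, adjusted p = 0.025, edgeR). Gfi1b is in the counts of 7, 8 and 9, though it passed the filter only through Apc-intact libraries.

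Dclk1, a microtubule-associated kinase used as a tuft cell marker (chr3:55242364-55539068, GRCm38), was among the genes with the widest range. It was at 19.7, 28.4 and 23.3 CPM in Control and 7.17, 6.74 and 12.6 in ApccKO on day 1 (log2 fold change -1.43 ± 0.32 SE, adjusted p = 0.0013). The groups did not overlap. On day 2 the values were 28.9, 26.8 and 38.0 in Control and 1.43, 1.58 and 1.21 in ApccKO (log2 fold change -4.46 ± 0.38 SE, adjusted p = 2.8e-08). All 3 ApccKO mice of day 2 were below the lowest mouse of day 1. Without Nle1, Dclk1 read 33.0, 32.4 and 34.5 in NlecKO and 5.98, 3.38 and 3.69 in the double knockout on day 2, again without overlap (log2 fold change -2.92 ± 0.34 SE, adjusted p = 2.9e-06).

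Alox5 (chr6:116410077-116461178) encodes 5-lipoxygenase, which starts leukotriene synthesis, and Alox5ap (chr5:149264767-149288153) encodes the membrane protein that presents arachidonic acid to it. Alox5 was at 5.79, 6.18 and 7.97 CPM in Control and 1.54, 1.01 and 2.32 in ApccKO on day 1 (log2 fold change -2.04 ± 0.33 SE, adjusted p = 6.1e-05). By day 2 it was at 8.84, 6.60 and 11.9 in Control and 0.217, 0.271 and 0.140 in ApccKO (log2 fold change -5.40 ± 0.42 SE, adjusted p = 4.1e-09), which were 553 and 14 counts summed over 3 libraries. The authors' TPM gave a smaller drop on day 2, from 5.04 ± 1.37 to 0.434 ± 0.141 (SD, n = 3), a log2 ratio of -3.54, and on day 1 the TPM log2 ratio was -1.13. Its partner Alox5ap was at 9.31, 6.64 and 9.10 in Control and 1.17, 0.857 and 1.12 in ApccKO on day 2 (log2 fold change -2.98 ± 0.36 SE, adjusted p = 9.8e-07). On day 1 Alox5ap was at 3.77, 6.73 and 7.18 and 2.50, 2.12 and 3.60 (log2 fold change -1.11 ± 0.33 SE, adjusted p = 0.009). In CPM the enzyme and its partner were thus each lower in every ApccKO mouse than in any Control mouse on both days. In TPM the Alox5ap groups overlapped on day 1, with ApccKO replicate 3 at 7.75 and Control replicate 1 at 6.91, and without the 3 libraries that stood apart Alox5ap was not called on day 1 (adjusted p = 0.056, edgeR).

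Ptgs1 (chr2:36230426-36252272), the constitutive cyclooxygenase, fell on both days. It was at 4.04, 3.72 and 3.89 CPM in Control and 0.954, 0.674 and 1.03 in ApccKO on day 1 (log2 fold change -2.13 ± 0.28 SE, adjusted p = 7.8e-06). On day 2 the values were 5.06, 4.60 and 5.62 in Control and 0.173, 0.135 and 0.279 in ApccKO, the latter 13 counts in all (log2 fold change -4.66 ± 0.34 SE, adjusted p = 1.7e-09). Every ApccKO value lay below every Control value on both days. In TPM the day 2 log2 ratio was -4.01. Hpgds (chr6:65117293-65144908), the hematopoietic prostaglandin D synthase that acts downstream of cyclooxygenase, did not go the same way. It was at 3.84, 3.52 and 5.41 CPM in Control and 4.42, 4.96 and 4.0 in ApccKO on day 2, with overlapping groups (log2 fold change 0.07 ± 0.24 SE, adjusted p = 0.82). On day 1 it was at 2.90, 4.32 and 4.28 and 2.95, 2.31 and 2.83 (log2 fold change -0.51 ± 0.24 SE, adjusted p = 0.09), and without replicate 1 of Control it was called lower (-0.67, adjusted p = 0.044, edgeR). In TPM the Hpgds log2 ratio was -0.77 on day 1 and -0.27 on day 2, with overlapping groups on both days.

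Trpm5 (chr7:143069153-143094642) and Avil (chr10:127000709-127020994), which encodes the actin-bundling protein advillin, were called lower in ApccKO on day 2 and not on day 1. The change of that effect between the days was not called for either (-1.41 ± 0.34 SE and -0.82 ± 0.34 SE, adjusted p = 0.050 and 0.28, edgeR), and both were called lower on day 1 in the double knockout against NlecKO. Trpm5 was at 21.3, 24.7 and 24.2 CPM in Control and 15.5, 11.1 and 21.9 in ApccKO on day 1, with 1 ApccKO mouse inside the Control range (log2 fold change -0.53 ± 0.24 SE, adjusted p = 0.072). On day 2 it was at 30.3, 24.8 and 31.1 and 9.06, 6.40 and 6.93, without overlap (log2 fold change -1.94 ± 0.25 SE, adjusted p = 2.5e-06). Avil was at 24.3, 21.5 and 33.2 in Control and 13.2, 10.8 and 11.6 in ApccKO on day 2 (log2 fold change -1.15 ± 0.24 SE, adjusted p = 0.00045), and at 14.8, 21.7 and 17.8 and 14.2, 8.81 and 20.4 on day 1 (log2 fold change -0.32 ± 0.24 SE, adjusted p = 0.28). Without replicate 3 of ApccKO, both were called lower on day 1, Trpm5 by -0.79 (adjusted p = 0.014) and Avil by -0.63 (adjusted p = 0.035) in edgeR.

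For Trpm5 the unit changed the size of the drop. In TPM it averaged 9.41 ± 1.15 in Control and 9.99 ± 2.78 in ApccKO on day 1, and 11.1 ± 0.354 and 7.43 ± 2.07 on day 2 (SD, n = 3), a log2 ratio of -0.58 in place of -1.94. Trpm5 overlaps Tssc4 on the opposite strand and shares 2.89% of its 31-base words with it, and Avil overlaps Tsfm and shares 4.05%. Alox5ap and Ptgs1 also overlap opposite-strand genes, and share 9.45% with Gm19719 and 3.11% with Gm43621. Hpgds overlaps Gm17147 on the opposite strand, and shares 2.62% of its words with 1264 other genes in all. Tssc4 was higher in ApccKO than in Control, at 49.8 against 35.5 CPM on day 1 and 58.5 against 35.0 on day 2 (adjusted p = 0.0028 and 4e-05, edgeR), while Tsfm was not called (0.32 and 0.10). Whether counting used strand is not stated by the labels. The part of Tssc4 reads in the Trpm5 values was not tested, nor was that of the other genes that overlap or share words with a member.

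Both transcription factors were lower in ApccKO on day 2. Pou2f3 (chr9:43123939-43210369) was at 3.22, 4.38 and 4.87 CPM in Control and 3.77, 2.41 and 4.07 in ApccKO on day 1, with overlapping groups (log2 fold change -0.29 ± 0.31 SE, adjusted p = 0.47). On day 2 it was at 6.28, 6.12 and 7.76 and 2.21, 1.76 and 2.28, without overlap (log2 fold change -1.69 ± 0.32 SE, adjusted p = 0.00014). Gfi1b (chr2:28609450-28621982), a zinc-finger repressor, had 29 counts over 3 Control libraries and 14 over 3 ApccKO libraries on day 1, and 61 and 3 on day 2. The day 2 counts scaled to a ratio of 0.0463, with an exact 95% interval of 0.00929 to 0.142 that covers counting error only, and edgeR called the gene lower (adjusted p = 2.5e-05). Gfi1b passed the low-count filter only through Apc-intact libraries, as no Apc-lost library had more than 7 counts. Its calls after Apc loss are conditional on that. In TPM it averaged 1.49 ± 0.713 in Control and 0.184 ± 0.283 in ApccKO on day 2 (SD, n = 3), with no overlap.

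Il25 (chr14:54932695-54935837) had 0 to 10 counts per library. Summed over 3 libraries, the counts were 8 in Control, 10 in NlecKO, 2 in ApccKO and 5 in the double knockout on day 1, and 7, 16, 1 and 9 on day 2. The ratio of ApccKO to Control was 0.229 (exact 95% interval 0.0237 to 1.15) on day 1 and 0.134 (0.00298 to 1.05) on day 2, so no difference was detectable at this depth.

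**Figure D2:**
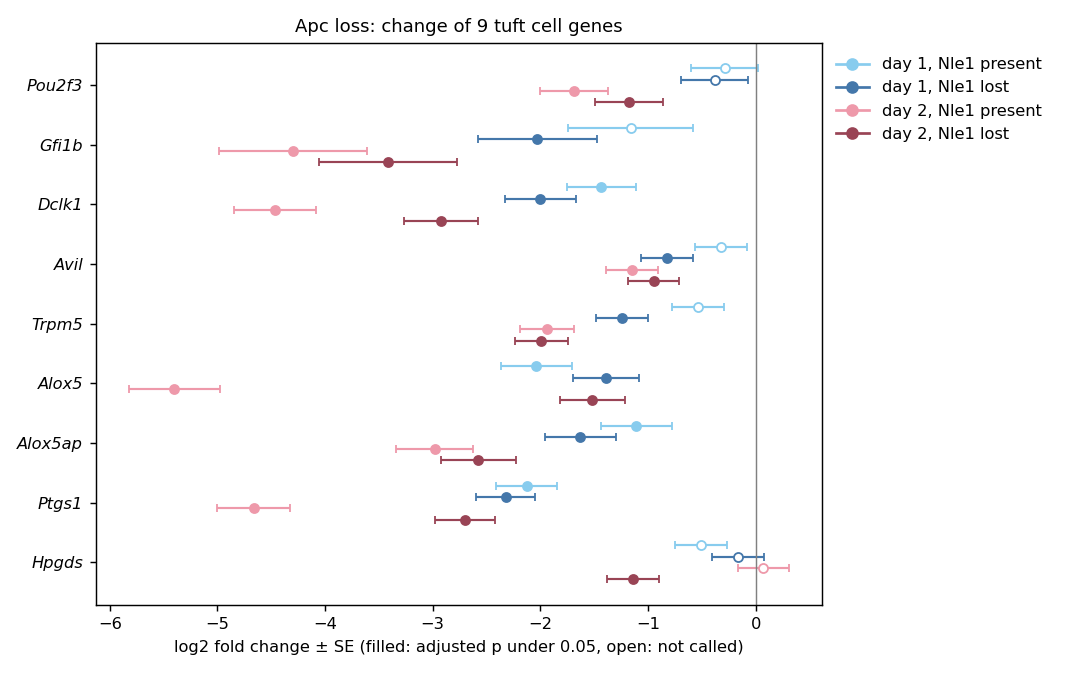
Log2 fold change after Apc loss (horizontal axis, bars are SE, 3 mice per group) of the 9 tested genes, with Nle1 present or lost on day 1 (blues) and day 2 (reds). Filled points passed an adjusted p of 0.05. Values reach -5.40 for Alox5 on day 2 with Nle1 present, while Hpgds is at 0.07 there and at -1.14 with Nle1 lost.

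Between day 1 and day 2, 5 of the 9 tested genes fell in ApccKO. They were lower on day 2 (Dclk1 by -2.64, Alox5 by -2.91, Alox5ap by -1.38, Trpm5 by -1.11 and Ptgs1 by -2.15), beside 5.49% of all genes called lower. Hpgds went the other way in ApccKO (0.72 ± 0.24 SE) and did not pass in edgeR (adjusted p = 0.057), but did in DESeq2 (0.032), with a filter of 2 CPM (0.042) and with only the libraries compared (0.035). No member was called in Control, NlecKO or the double knockout by edgeR or DESeq2. At an unadjusted p under 0.05 in edgeR, 2 were higher in Control and 0 changed in each of NlecKO and the double knockout. The shares of all genes called there were 0.163%, 0.0362% and 6.49%. A difference between the day changes was tested only for ApccKO and Control. This change of the Apc effect from day 1 to day 2 was called for Dclk1 (-3.03 ± 0.49 SE, adjusted p = 0.0057), Alox5 (-3.36 ± 0.55 SE, 0.0057) and Ptgs1 (-2.54 ± 0.46 SE, 0.0093) in edgeR, beside 0.604% of all genes called lower. DESeq2 called 6. Without replicate 2 of Control on day 2, edgeR called 5, with Alox5ap and Trpm5 added, and Trpm5 was also called without replicate 1 or 2 of ApccKO on day 1. The Alox5ap day change was lost without replicate 3 of ApccKO on day 1 or replicate 2 or 3 on day 2. Without the 3 libraries that stood apart, 1 ApccKO mouse was left on day 1, whose spread is assumed to be like that of the other groups, and 0 members were called in either day result. The sizes moved little: the ApccKO day change was -2.35 for Dclk1, -2.85 for Alox5 and -2.26 for Ptgs1 (adjusted p = 0.050, 0.050 and 0.056, edgeR), and the difference of the Apc effect was -2.75, -3.31 and -2.65 (0.13, 0.099 and 0.11).

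Loss of Nle1 alone changed none of the tested genes by the rule used. In NlecKO against Control, 0 of 9 genes were called on either day by edgeR or by DESeq2, beside 2.48% of all genes on day 1 and 15.6% on day 2. At an unadjusted p under 0.05 in edgeR, 1 gene was higher on day 1 (Ptgs1) and 0 changed on day 2. Estimates on day 1 were above 0 for all 9 genes, from 0.01 for Hpgds to 0.79 for Gfi1b, with a median of 0.40 beside 0.00 over all genes. On day 2 they ran from -0.28 for Pou2f3 to 0.42 for Alox5. Trpm5 was at 32.3, 29.4 and 30.5 CPM in NlecKO on day 1 and 37.7, 36.6 and 40.6 on day 2, above every Control value of the same day (log2 fold change 0.39 ± 0.24 SE, adjusted p = 0.41 and log2 fold change 0.42 ± 0.24 SE, adjusted p = 0.26). These 2 differences did not pass the test.

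When Nle1 was lost together with Apc, 3 genes were higher than with Apc loss alone on day 2, and Hpgds was lower. In the double knockout against ApccKO, Dclk1, Alox5 and Ptgs1 were higher and Hpgds was lower among 9 genes tested, beside 19.5% of all genes higher and 15.4% lower. The other 5 genes were not called, with estimates from 0.22 for Pou2f3 to 0.75 for Gfi1b. The ApccKO libraries are shared with the comparison of ApccKO and Control above.

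Alox5 was at 2.95, 5.04 and 4.83 CPM in the double knockout on day 2, against 0.217, 0.271 and 0.140 in ApccKO (log2 fold change 4.30 ± 0.43 SE, adjusted p = 5.7e-07). The lowest double knockout mouse was above the highest ApccKO mouse. Those values were still below the NlecKO values of 11.6, 9.75 and 15.2 (log2 fold change -1.52 ± 0.30 SE, adjusted p = 0.00042). In TPM the difference from ApccKO was smaller, 2.43 ± 0.473 against 0.434 ± 0.141 (SD, n = 3), a log2 ratio of 2.48, without overlap.

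Ptgs1 was at 1.12, 0.644 and 0.987 CPM in the double knockout against 0.173, 0.135 and 0.279 in ApccKO (log2 fold change 2.21 ± 0.38 SE, adjusted p = 0.00015), from 58 and 13 counts over 3 libraries. The groups did not overlap in CPM but did in TPM, where the log2 ratio was 0.78. Dclk1 was at 5.98, 3.38 and 3.69 against 1.43, 1.58 and 1.21 (log2 fold change 1.64 ± 0.39 SE, adjusted p = 0.003), without overlap. Hpgds was at 3.45, 1.61 and 2.18 against 4.42, 4.96 and 4.0 (log2 fold change -0.87 ± 0.24 SE, adjusted p = 0.0083). In TPM Hpgds did not overlap between these groups, but it did between the double knockout and NlecKO on day 2 (log2 ratio -0.53). Its 3 double knockout values in CPM were below all ApccKO values, yet without replicate 2 of the double knockout it was not called (-0.65, adjusted p = 0.052, edgeR). Il25 had 9 counts against 1, a ratio of 9.69 with an exact 95% interval of 1.34 to 425 for counting error only. With no filter beyond 1 count, edgeR gave 2.84 ± 1.07 SE (adjusted p = 0.069), so Il25 was not called there.

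The effect of Apc loss on day 2 differed with Nle1 status for 3 genes, by a test of the interaction. It was 3.88 ± 0.53 SE for Alox5 (adjusted p = 0.00035, edgeR), 1.96 ± 0.45 SE for Ptgs1 (0.015) and -1.21 ± 0.34 SE for Hpgds (0.040). Of all genes, 3.29% were called higher and 1.95% lower. Dclk1 did not pass in edgeR (1.54 ± 0.50 SE, adjusted p = 0.078) but did in DESeq2 (0.020). The Alox5 interaction was called under all 18 alternative fits to the counts, from 3.64 to 4.10. From the group means in the authors' TPM, with no test, it was smaller, at 2.24 for Alox5, 1.21 for Ptgs1 and -0.26 for Hpgds. Ptgs1 was lost without replicate 1 of ApccKO on day 2 (1.89, adjusted p = 0.052). Hpgds was lost under 12 of its 18 alternatives, with adjusted p from 0.0092 to 0.11, among them leaving out any 1 of 9 libraries of day 2.

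On day 1 the double knockout and ApccKO differed for 1 gene. Alox5 was at 1.99, 4.69 and 3.36 CPM against 1.54, 1.01 and 2.32 (log2 fold change 1.05 ± 0.33 SE, adjusted p = 0.049), beside 5.87% of all genes called higher, and the groups overlapped. That call was lost without replicate 1 or 2 of ApccKO or without replicate 2 or 3 of the double knockout. Without replicate 2 of the double knockout, Dclk1 (-0.95, adjusted p = 0.034) and Trpm5 (-0.70, 0.048) were instead called lower than in ApccKO by edgeR. No interaction was called on day 1 by edgeR or DESeq2, with 1 gene lower at an unadjusted p under 0.05 in edgeR (Trpm5), and 0.0121% of all genes called. Replicate 2 of the double knockout on day 1 was the highest of its group in all 9 tested genes and replicate 1 the lowest in 5. Against Control, the double knockout had 5 genes lower on day 1 and 9 on day 2, beside 20.8% and 26.7% of all genes called lower. Without replicate 1 of the double knockout, 2 were called on day 1; Alox5 was also lost without replicate 3 of Control, and Avil gained without replicate 2 of the double knockout. On day 2, Hpgds was lost without replicate 2 of the double knockout, and Hpgds and Avil without replicate 3 of Control.

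**Figure D3:**
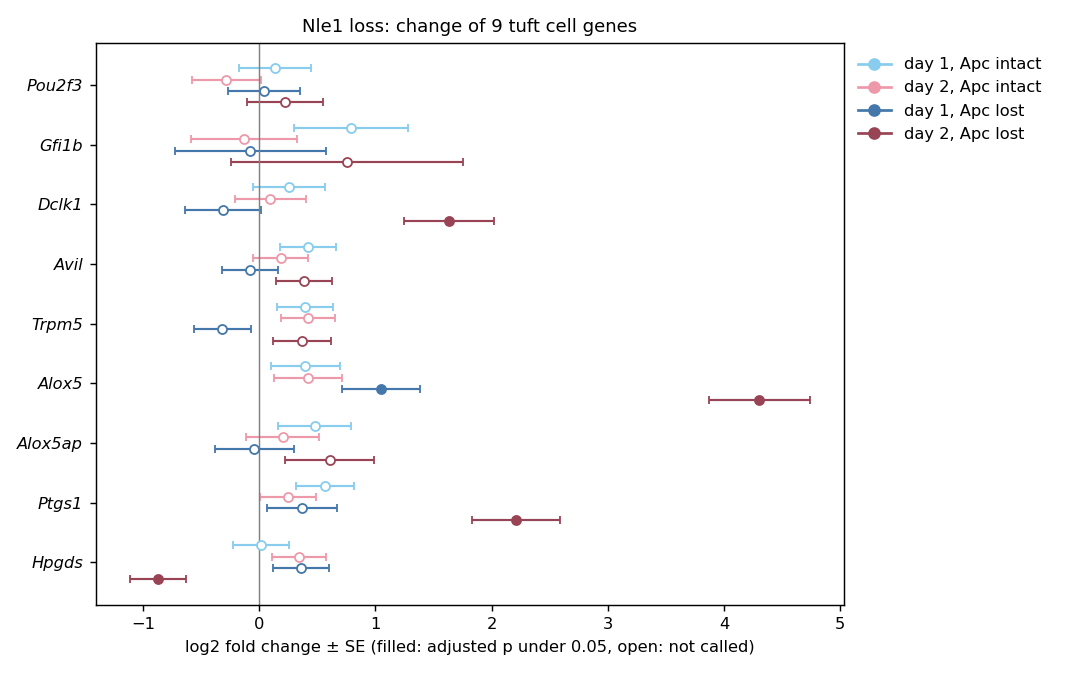
Log2 fold change after Nle1 loss (horizontal axis, bars are SE, 3 mice per group) of the 9 tested genes, with Apc intact (light) or lost (dark) on day 1 (blues) and day 2 (reds). Filled points passed an adjusted p of 0.05. With Apc lost, Alox5 on day 2 is at 4.30, Ptgs1 at 2.21, Dclk1 at 1.64 and Hpgds at -0.87, and with Apc intact no point is filled.

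Genes that work with the members were read from lists chosen with earlier results of these data known. Their counts are read against all genes tested, of which 25.0% were lower and 24.7% higher in ApccKO than in Control on day 1, and 29.4% lower and 29.2% higher on day 2. In the double knockout against ApccKO on day 2, 19.5% were higher and 15.4% lower. Of 12 taste-type signalling genes, 10 were tested, and 6 fell in ApccKO on day 1 and 8 on day 2, with none higher, beside the 25.0% and 29.4% of all genes that were lower. On day 2 the 4 with the smallest p were Rgs2 (-2.31 ± 0.22 SE) and Rgs13 (-4.22 ± 0.44 SE), which shorten G-protein signals, the phospholipase Plcb2 (-3.87 ± 0.38 SE) and the short-chain fatty acid receptor Ffar3 (-3.32 ± 0.53 SE), with adjusted p of 4.6e-08, 2e-07, 6.7e-08 and 2.6e-05 in edgeR. Plcb2, which acts upstream of Trpm5, averaged 10.4 ± 3.18 CPM in Control and 0.706 ± 0.0746 in ApccKO (SD, n = 3). Rgs13 (1.96 ± 0.47 SE) and Plcb2 (1.52 ± 0.39 SE) were higher in the double knockout than in ApccKO on day 2. The list had 1 gene called in NlecKO against Control on day 2, beside 15.6% of all genes. It was Itpr3 (-0.25 ± 0.07 SE), an intracellular calcium channel.

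Of the eicosanoid enzymes outside the members, 11 of 13 were tested, and 4 fell and 3 rose in ApccKO on day 2, shares near the 29.4% and 29.2% of all genes. Ltc4s, the leukotriene C4 synthase, fell by -2.44 ± 0.30 SE and Lta4h, the leukotriene A4 hydrolase, by -1.07 ± 0.13 SE, while the phospholipase Pla2g4a, which frees arachidonic acid, rose by 1.52 ± 0.22 SE (adjusted p = 1e-06, 1.3e-06 and 8e-06, edgeR). Ltc4s averaged 5.81 ± 2.36 CPM in Control and 1.06 ± 0.188 in ApccKO. Alox12, a lipoxygenase, was the 1 gene of the list called between the double knockout and ApccKO on day 2 (1.33 ± 0.23 SE).

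Of the type 2 circuit, 8 of 12 genes were tested, since Il4, Il5, Il13 and Tslp were too low. In ApccKO on day 2, 4 fell and 1 rose, beside 29.4% and 29.2% of all genes. Gata3, a lymphocyte and lineage factor, fell by -2.16 ± 0.52 SE and Il4ra, the receptor chain for interleukins 4 and 13, rose by 1.48 ± 0.22 SE. Il33, an alarmin cytokine, averaged 87.3 ± 11.3 CPM in the double knockout and 10.6 ± 5.46 in ApccKO on day 2 (3.04 ± 0.63 SE, adjusted p = 0.0012, edgeR), and 34.5 ± 14.2 in NlecKO against 9.34 ± 5.65 in Control (1.91 ± 0.62 SE, 0.045).

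Of 13 factors of tuft and secretory fate, 5 were lower and 6 higher in ApccKO on day 2, beside 29.4% and 29.2% of all genes. The 4 with the smallest p were all higher: Sox4 (2.71 ± 0.19 SE), Runx1 (2.54 ± 0.20 SE), Ascl2 (1.70 ± 0.17 SE) and Sox9 (2.08 ± 0.20 SE). They do not stand for the whole list. Spib, also in it, went the other way, at 15.4 ± 1.46 CPM in Control and 2.45 ± 0.398 in ApccKO (SD, n = 3). Ascl2 and Sox9 are also known from crypt stem and progenitor cells. In the double knockout against ApccKO on day 2, 4 were lower and 0 higher in edgeR, beside 15.4% and 19.5% of all genes, among them Sox4 (-0.72 ± 0.18 SE) and the enteroendocrine factor Neurog3 (-1.09 ± 0.31 SE).

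Among 24 other tuft cell markers, 17 fell and 5 rose in ApccKO on day 2, beside 29.4% and 29.2% of all genes, with a median of -2.79 against 0.02. Lrmp (-3.29 ± 0.31 SE), Fyb (-3.13 ± 0.29 SE) and Cd300lf (-2.89 ± 0.28 SE) fell, and Tuba1a, a tubulin, rose (1.61 ± 0.14 SE). In the double knockout against ApccKO, 10 were higher and 3 lower on day 2, beside 19.5% and 15.4% of all genes. In NlecKO against Control 1 was called on each day, Cwh43 on day 1 and Krt18 on day 2 (0.90 ± 0.19 SE). The shares of all genes called there were 2.48% on day 1 and 15.6% on day 2. Fyb, Vav1, Ptpn6, Inpp5d and Ptprc of this list are also expressed by white blood cells.

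Markers of such cells moved in the same comparisons. The 9 lymphocyte markers summed to 283 to 477 CPM in Control, 35.9 to 43.8 in ApccKO and 63.7 to 83.0 in the double knockout on day 2, and 7 of 9 were lower in ApccKO, where 29.4% of all genes were. The 10 myeloid markers summed to 40.8 to 67.3 in Control, 27.2 to 37.4 in ApccKO and 38.1 to 48.5 in the double knockout. Of these, 8 were lower in ApccKO than in Control, and 8 were higher in the double knockout than in ApccKO, where 19.5% of all genes were, among them Cd68 (0.88 ± 0.21 SE) and Csf1r (2.27 ± 0.54 SE). Their part in the Alox5, Alox5ap, Ptgs1 and Hpgds results was not tested.

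Mast cell markers, of which 4 of 10 were tested, summed to 7.56 to 19.8 CPM in Control on day 2. There Cma1 and Tpsb2 were at 0 in all 3 libraries. The sums were 5.12 to 8.72 in ApccKO and 9.87 to 15.2 in the double knockout on day 2. In ApccKO, Cma1 and Tpsab1 were at 0 in all 3 libraries. Mcpt2, a mast cell protease, was higher in the double knockout than in ApccKO (1.88 ± 0.70 SE, adjusted p = 0.044, edgeR). Platelet markers summed to 25.9 to 32.6 CPM in ApccKO and 20.1 to 24.7 in the double knockout on day 2. In the same order, neuron and glia markers summed to 4.87 to 5.98 and 6.57 to 8.48. Stromal and endothelial markers summed to 4.92 to 8.85 and 13.01 to 24.6 CPM, and 3 of the 5 tested were higher in the double knockout, beside 19.5% of all genes. The part of these cells was not tested either.

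Other epithelial markers also fell after Apc loss. On day 2, 7 of 8 enteroendocrine, 8 of 8 enterocyte and 4 of 6 goblet markers were lower in ApccKO than in Control, 4 of 5 stem cell markers were higher, and 1 of 6 Paneth markers was called, Mmp7, which was higher, beside 29.4% of all genes lower and 29.2% higher. Goblet markers summed to 10352 to 11820 CPM in Control, 2206 to 2876 in ApccKO and 4830 to 6078 in the double knockout, so they too were higher in the double knockout than in ApccKO, in 5 of 6 genes, beside 19.5% of all genes. Enteroendocrine sums on day 2 were 198 to 289 in ApccKO and 330 to 426 in the double knockout. In the same order, enterocyte sums were 1585 to 3084 and 3022 to 5644, and Paneth sums 8641 to 9609 and 8000 to 15819. Stem cell sums went the other way, at 4069 to 4548 and 1463 to 1824. No test compared the tuft cell genes with these lists.

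**Figure D4:**
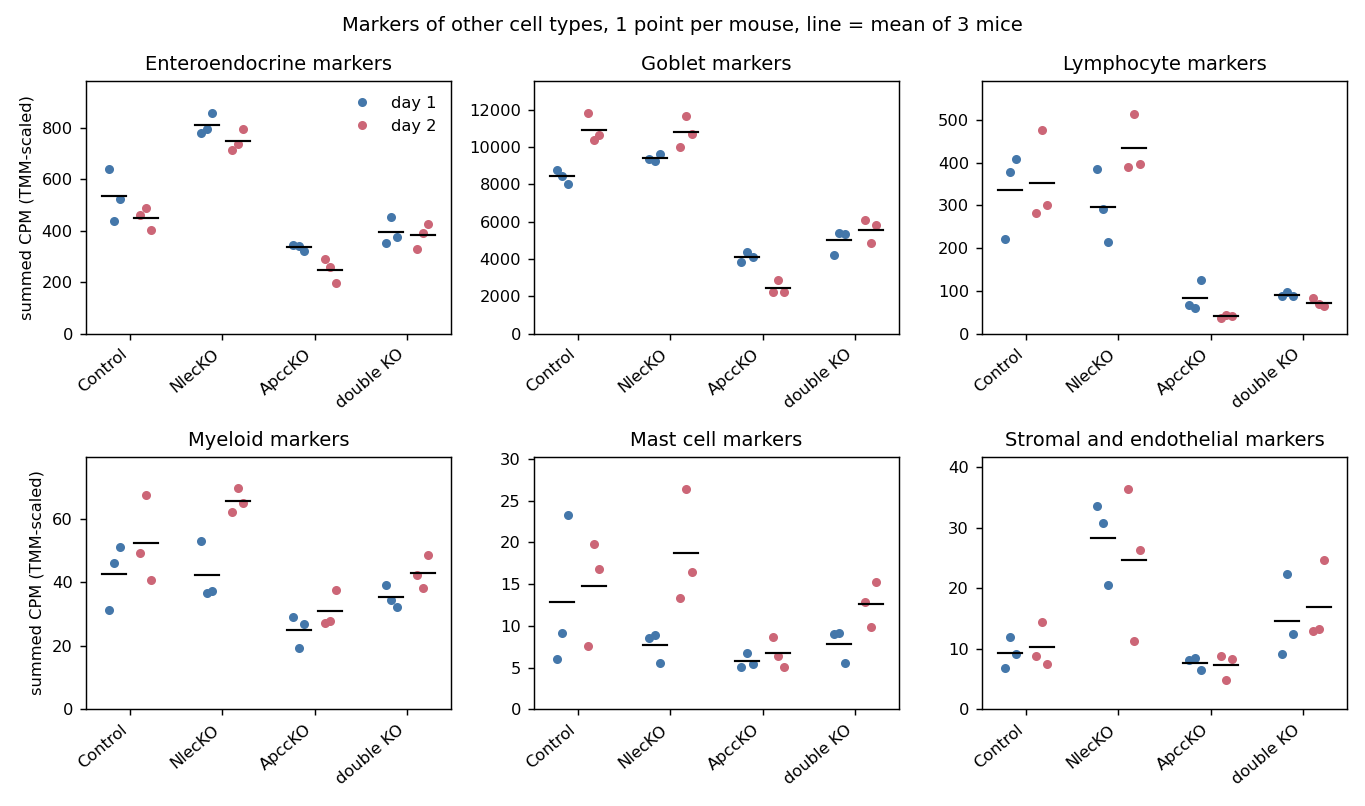
Summed CPM of marker genes of 6 other cell types (vertical axes, each from 0) in the 4 genotypes, with day 1 in blue and day 2 in red, 1 point per mouse and a line at the mean of 3 mice. Lymphocyte sums are at 35.9 to 43.8 in ApccKO on day 2, below the 63.7 to 83.0 of the double knockout, and myeloid sums are at 27.2 to 37.4 against 38.1 to 48.5.

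Within groups, the members varied together from mouse to mouse. Deviations from the group mean of log2 CPM were correlated over the 24 libraries, which share depth, scaling and dissection within a mouse, and these values are descriptions without a test. The pair with the highest Pearson r was Dclk1 and Trpm5 (0.89), and the lowest was Alox5 and Hpgds (0.18). Against the mean of the other members, Trpm5 had r = 0.91, Dclk1 0.87, Alox5ap 0.87, Pou2f3 0.84, Avil 0.81, Ptgs1 0.71, Alox5 0.58, Hpgds 0.55 and Gfi1b 0.53. The widest deviations of the standardised member score were in double knockout day 1, at -1.50 for replicate 1 and 2.05 for replicate 2, and in ApccKO day 1, at -1.48 for replicate 2 and 1.27 for replicate 3. These libraries weigh heavily in the r values above, which were not recomputed without them.

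**Figure D5:**
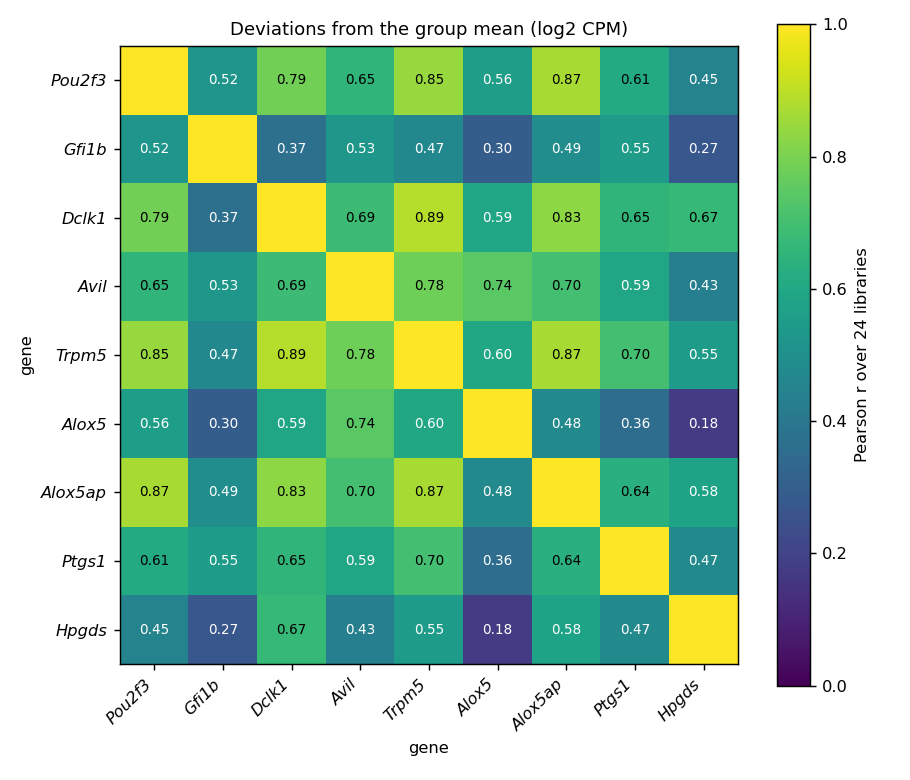
Pearson r between pairs of the 9 tested genes (both axes) over 24 libraries, from deviations of log2 CPM from the group mean, with colour from 0 to 1. Trpm5, Dclk1, Alox5ap and Pou2f3 form the block of high values, up to 0.89, and Alox5 with Hpgds is the lowest pair at 0.18.

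The genes most like the member score over all 24 libraries, among 11828 with a mean of at least 1 CPM, were Lrmp (r = 0.98), Spib (0.98), Sh2d7 (0.97), Pik3r5 (0.97), Vav1 (0.97), Sh2d6 (0.97), Pygl (0.97) and Inpp5d (0.96), beside a median r of -0.11 over all genes ranked. With group means removed, the order was Spib (0.91), Pnliprp2 (0.88), Sh2d7 (0.87), Lrmp (0.86), Adcy5 (0.84), Pik3r5 (0.84), Vav1 (0.83) and Sh2d6 (0.83), beside a median of -0.04. Sh2d7, Sh2d6, Lrmp, Pik3r5, Vav1 and Spib were thus in both. Without the 3 libraries that stood apart, 6 and 4 of the 8 genes were the same. Spib, an ETS-family factor, averaged 15.4 ± 1.46 CPM in Control and 2.45 ± 0.398 in ApccKO on day 2 (SD, n = 3).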

How the data were processed

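The 24 libraries, 1 per mouse, were grouped by the genotype, day and replicate number in their titles. Per the submitters' processing notes, kallisto 0.43, the genome build mm9, DESeq2 and DESeq were used; the notes give no roles, annotation or strand setting. The deposited table of estimated counts gives 1 value per gene and library. A second deposited table holds TPM by the authors, and another a normalised signal; checked by its values, each library's column equals its rounded counts over a single size factor.

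After rounding, the estimated counts were analysed in edgeR 4.0.16 (limma 3.58.1, R 4.3.3): filterByExpr with a minimum count of 10, TMM scaling, 1 mean per group for 8 groups, robust quasi-likelihood, Benjamini-Hochberg adjustment over 16552 genes and a threshold of 0.05. Log2 CPM used a prior count of 2. The authors' TPM served for levels between genes and, with the normalised signal, as alternatives. Other alternatives were DESeq2 1.42.0, its size factors, other filters, a replicate block, fits of only the libraries compared, and leaving out libraries. Exact intervals have 95% confidence and cover counting error only. Replicates of a group differed beyond sampling noise (chi-square per gene at least 9.51).

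The 10 genes and all lists were chosen with earlier results of these data known. Named genes were all 10 members, up to 4 genes of each gene list with the smallest p per comparison, up to 2 markers per other cell type, and the 8 genes most like the member score by Pearson r. Csf1r, Cd68, Mcpt2, Mmp7 and Gm8730 stand for their lists or libraries, and Fyb, Vav1, Ptpn6, Inpp5d and Ptprc were named for their known expression. Sharing of 31-base words was computed over the GENCODE transcripts of GRCm38.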

Additional observations from a re-analysis of the deposited data

Results flagged for a closer look

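These results are singled out because the same contrast differed between groups by a test of the difference itself (edgeR, adjusted over all 16552 genes). Between Nle1 states on day 2, the Apc effect differed by 3.88 ± 0.53 SE for Alox5 (adjusted p = 0.00035), 1.96 ± 0.45 SE for Ptgs1 (0.015) and -1.21 ± 0.34 SE for Hpgds (0.040). Between day 2 and day 1 with Nle1 present, it differed by -3.03 ± 0.49 SE for Dclk1 (0.0057), -3.36 ± 0.55 SE for Alox5 (0.0057) and -2.54 ± 0.46 SE for Ptgs1 (0.0093). Alox5 and Ptgs1 are in both sets. Both contrasts use the same ApccKO and Control libraries of day 2, so this overlap is not separate support. In ApccKO on day 2, Alox5 had 14 counts and Ptgs1 13 over 3 libraries. The Hpgds interaction was lost under most alternative fits and was -0.26 in the authors' TPM. The Ptgs1 interaction was lost without replicate 1 of ApccKO on day 2. The day differences rest on ApccKO mice of day 1, of which replicates 2 and 3 stood apart. Groups of 3 mice were not searched for single outlying values.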

How the results depend on the processing

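For the double knockout against ApccKO on day 1, the count of 1 became 0 with DESeq2 size factors, with no filter, with only the libraries compared and without the 3 libraries that stood apart. With only the libraries compared, the double knockout against Control on day 1 had 3 in place of 5. For ApccKO between days, 5 became 0 without the 3 libraries and 6 (Hpgds added) with the DESeq2 test, a filter of 2 CPM or only the libraries compared. For the day difference of the Apc effect 3 became 6 with the DESeq2 test, 4 with DESeq2 size factors (Trpm5 added, adjusted p = 0.045) and 0 without the 3 libraries. The interaction on day 2 went from 3 to 4 with the DESeq2 test (Dclk1 added) and to 2 with no filter (Hpgds lost, 0.057), and with only the libraries compared it gained Dclk1 (0.019) and lost Hpgds (0.061). With only the libraries compared on day 2, Avil was added for the double knockout against ApccKO (0.038), and Hpgds was lost against Control (0.064). The ApccKO count of day 1 was 3 in place of 4 without the 3 libraries. A filter of 2 CPM, under which Gfi1b was no longer tested, lowered 4 other counts by 1. Of the 8 genes most like the members with group means removed, 4 were the same without them. The cause was not tested, apart from the fewer libraries.

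Leaving out 1 library at a time, called members ranged from 4 to 6 for ApccKO against Control on day 1, 7 to 8 for the double knockout against NlecKO, 0 to 2 against ApccKO and 2 to 6 against Control. On day 2 they ranged from 3 to 4 for the double knockout against ApccKO, 1 to 3 for the interaction and 7 to 9 against Control. They ranged from 4 to 5 for ApccKO between days and 3 to 5 for the day difference of the Apc effect. Signs turned for genes that were not called: Pou2f3 ranged from -0.74 to 0.10 (double knockout against Control, day 1) and from -0.47 to 0.37 (against ApccKO, day 1), Ptgs1 from -0.15 to 0.56 there and from -0.51 to 0.20 between days, and Avil from -0.35 to 0.24 against ApccKO and from -0.55 to 0.032 between days in ApccKO. Dclk1 in the double knockout against ApccKO on day 1 was at 0.10 without the 3 libraries.

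With the replicate number as a replicate block, the interaction on day 2 had 2 called members in place of 3, Hpgds being lost (-1.21, adjusted p = 0.057, edgeR), and the other counts were the same. The labels tie no animals across groups. Over 5000 genes, same-numbered samples had correlated deviations from group means (every r over 0.1) in 2 of 28 pairs of groups, with a median r of 0.04. One of these pairs, Control and double knockout on day 2, kept 9 called members under the block. Depth limits Il25 and Gfi1b.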
